A study of Homo sapiens with 6 samples.

Results

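The genes described here lie on the long arm of human chromosome 3, in bands 3q27 to 3q29 near its end. A list of 40 named genes was used, out of 58515 symbols that stand on 1 row of the deposited tables. All 40 were found in all 6 tables and on chromosome 3 of the GENCODE release 29 annotation, from the start of MAP3K13 at 185282941 to that of LMLN at 197960200 (GRCh38), a span of 12.7 Mb. The filter on low values, a 6-library mean no lower than 1 TPM, was passed by 37. TPM is each gene's share of the library's RNA, corrected for transcript length and scaled to the same total in every library. The members were chosen by name and band, with the rhLUM against Ctrl changes of these same libraries known, so the level filter and each log2 change belong to the choice. Every change given for a member is therefore a description, and no test supports it. The list does not hold the whole interval: 45 other genes that start there also passed the filter, 28 of them protein coding, and the reason they were left off the list is unknown.

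The libraries are poly-A RNA sequencing from tumours grown in a host animal from MHCC97L, an established cell line of human liver cancer, 3 labelled Ctrl and 3 labelled rhLUM. The rhLUM tumours received recombinant human lumican, a secreted proteoglycan of the extracellular matrix, and the comparison asks which tumour transcripts differ with it. Not given in the sources used here: the host's species and age, the dose, route and duration, and what the controls received. The labels do not say that a group's 3 libraries are separate tumours, so an error measures only the spread between these libraries, which may be technical.

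Neighbours on a chromosome need not share a function. They can share a number of gene copies, a stretch of open or closed chromatin, or, where starts face away from each other, a promoter. The distal long arm of chromosome 3 is often gained in squamous cancers, with TP63 as one of its best known genes. Loss of part of 3q29, with PAK2, DLG1 and FBXO45, causes a developmental syndrome. The members include transcription factors, RNA-binding proteins, SUMO and ubiquitin enzymes, kinases, lipid enzymes and proteins of the cell cortex and cilium.

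The sequences of 4 promoter stretches are printed because results below name their genes. Whether these sequences have a part in the changes was not tested. They come from RefSeq (GRCh38.p14) and are written on the plus strand, with the start site just past the right end for the plus-strand gene. RTP4 had the largest fall, and in the 250 bases before its start, at chr3:187368135-187368384, capitals mark the core of an interferon-stimulated response element (GAAA, any 2 bases, GAAA). The 3 other stretches lie between the start sites of head-to-head neighbours, with capitals for a CCAAT box (CCAAT) or an Sp1 motif (GGGCGG) on either strand. WDR53 and FBXO45, at chr3:196568555-196568659, moved in opposite directions. CEP19 and PIGX, at chr3:196712251-196712376, both moved down, and RUBCN and FYTTD1, at chr3:197749821-197749882, hold the largest rise beside a gene that did not pass the threshold.
RTP4: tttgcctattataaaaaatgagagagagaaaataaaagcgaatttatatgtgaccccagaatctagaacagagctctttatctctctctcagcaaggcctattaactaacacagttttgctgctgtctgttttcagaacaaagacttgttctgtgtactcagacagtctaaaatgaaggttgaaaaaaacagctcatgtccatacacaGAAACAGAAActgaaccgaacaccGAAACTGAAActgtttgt
WDR53-FBXO45: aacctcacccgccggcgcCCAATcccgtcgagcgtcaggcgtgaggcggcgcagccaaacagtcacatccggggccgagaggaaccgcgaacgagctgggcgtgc
CEP19-PIGX: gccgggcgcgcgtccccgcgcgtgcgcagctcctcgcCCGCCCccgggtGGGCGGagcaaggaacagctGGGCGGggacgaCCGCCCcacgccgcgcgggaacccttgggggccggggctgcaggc
RUBCN-FYTTD1: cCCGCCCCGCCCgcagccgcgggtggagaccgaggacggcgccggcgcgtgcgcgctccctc

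Several facts of the whole libraries moved with the groups. Mitochondrial genes took 20.5% to 20.7% of all TPM in Ctrl and 14.3% to 14.5% in rhLUM, and 23525 to 24060 entries stood above 0 in Ctrl against 22323 to 22916 in rhLUM. Of the hepatocyte markers, 7 of 8 had a mean of at least 1 TPM, and all 8 summed to 772 to 791 TPM in Ctrl and 1346 to 1374 in rhLUM. They did not move together: group means went from 289 to 825 TPM for ALB and from 62.5 to 251 for TF, but from 379 to 208 for SERPINA1 and from 31.2 to 28.6 for AFP. The 8 leukocyte markers summed to 222 to 223 and 302 to 305 TPM. The 8 fibroblast markers summed to 38.2 to 41.9 and 102 to 113 TPM, mostly LUM itself, and without LUM the order turned, to 14.4 to 15.4 and 10.03 to 13.7, with DCN at 7.96 and 1.26. The 6 endothelial markers summed to 21.6 to 23.0 and 26.9 to 31.8 TPM, and without PECAM1 to 5.43 to 6.26 and 3.70 to 3.94. Here CDH5 fell, at 3.10 and 0.45, but KDR rose, at 2.72 and 3.36, and VWF, TEK and EMCN stayed under 1 TPM. The part of these library-wide shifts in the members' changes was not tested, apart from rescaling without mitochondrial genes. That rescaling gave 12 members higher and 17 lower, beside 37.7% and 27.9% of all genes in that fit.

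The members moved both ways. Log2 changes, rhLUM minus Ctrl on the log2(TPM + 1) scale, ran from -1.79 (RTP4) to 1.58 (FYTTD1), with a median of -0.03 over the 37 against 0.16 over all 14781 genes tested. Of the 37, 14 were higher and 12 lower with rhLUM at an adjusted p under 0.05 in a limma fit over all tested genes. In the same fit 66.8% of all genes passed the threshold, 44.5% higher and 22.3% lower. The 3 rhLUM libraries lay wholly above the 3 Ctrl libraries for 16 members and wholly below for 16, against 47.0% and 24.3% of all genes (71.4% in either direction). Read against the median of all tested genes, 14 members stood above it and 23 below. The TPM were also scaled by the median of ratios. All genes then had a median of -0.015, 10 members were higher and 19 lower, beside 32.7% and 32.5% of all genes in that fit, and again 14 stood above that median and 23 below.

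**Figure D1:**
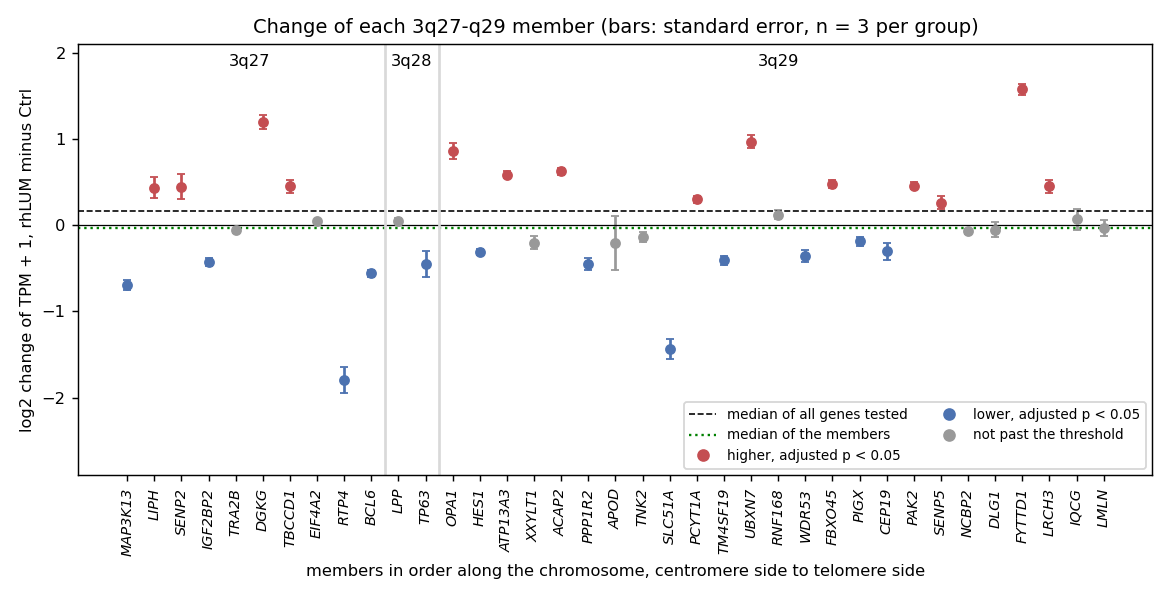
Log2 change of TPM + 1 (vertical axis, rhLUM minus Ctrl) of the 37 members in order along the chromosome, with bars for the standard error (n = 3 per group). Red and blue points passed the limma threshold, grey points did not, and the dashed and dotted lines are the medians of all genes tested (0.16) and of the members (-0.03). Rises and falls lie among each other along the interval.

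All 3 transcription factors among the members fell, beside 22.3% of all genes. BCL6, a zinc finger repressor known from germinal centre B cells, stood at 45.9, 43.5 and 44.8 TPM in Ctrl A, B and C and at 29.9, 30.7 and 29.5 in rhLUM, a log2 change of -0.56 (SE 0.04, n = 3 per group). HES1, a repressor induced by Notch signalling, went from 54.3, 52.9 and 55.7 TPM to 44.0, 42.5 and 44.4, a log2 change of -0.31 (SE 0.04). For both genes every rhLUM library was below every Ctrl library, beside 24.3% of all genes. TP63, the p53 relative that maintains basal epithelium, was near the filter, at 1.59, 1.72 and 2.23 TPM in Ctrl and 0.92, 1.2 and 1.1 in rhLUM. Its log2 change was -0.45 (SE 0.15), and its call was lost on leaving out Ctrl C or rhLUM A, without the filter on low values and with a replicate block. KRT5, a keratin of the basal cells that express TP63, was at 0 in all 6 libraries. The 6 basal markers, which include TP63 itself, summed to 23.2 to 26.8 TPM in Ctrl and 25.7 to 29.5 in rhLUM. Nearly all of that was KRT15, and the 5 others, TP63 among them, summed to 2.95 to 3.91 and 5.13 to 5.28 TPM. Group means were 0.25 and 1.59 for KRT14, 0.51 and 2.06 for KRT6A and 0.72 and 0.48 for DSG3.

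Of 5 members that act on RNA, FYTTD1 alone rose and IGF2BP2 alone fell, beside 44.5% and 22.3% of all genes. FYTTD1 encodes an adaptor for the export of mRNA from the nucleus. It stood at 16.3, 17.2 and 15.8 TPM in Ctrl and at 49.2, 48.3 and 55.6 in rhLUM, so the groups lay far apart, and its log2 change of 1.58 (SE 0.06) was the largest rise among the members. IGF2BP2, which binds and stabilises mRNAs, fell by 0.43 on the log2 scale (SE 0.04), with 34.9 ± 1.46 TPM in Ctrl against 25.7 ± 0.24 (SD, n = 3). The most abundant members, EIF4A2 and TRA2B, belong here. EIF4A2, an RNA helicase of translation initiation, was at 477 ± 6.88 TPM (SD, n = 3) in the Ctrl libraries and 493 ± 6.47 in the rhLUM ones, and the splicing factor TRA2B at 188 ± 2.83 and 180.5 ± 5.75. NCBP2, the small subunit of the nuclear cap-binding complex, was at 93.2 ± 0.37 and 88.8 ± 1.95 TPM. These 3 did not pass the threshold as deposited, although the groups did not overlap for any of them, beside 71.4% of all genes with no overlap. All 3 passed as lower under median-of-ratios and upper quartile scaling and on rescaling without mitochondrial genes, so the sign of EIF4A2 turned from 0.05 as deposited. Exons of EIF4A2 overlap those of RFC4 and of 4 named small nucleolar RNA genes.

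Among the SUMO and ubiquitin genes 4 of 6 rose and 1 fell, beside 44.5% and 22.3% of all genes, and the calls of 3 of the 4 were lost in some alternative. UBXN7, an adaptor that joins ubiquitin ligases to the p97 ATPase, stood at 8.16, 8.41 and 7.84 TPM in Ctrl and at 16.8, 18.4 and 15.5 in rhLUM, with no overlap. Its log2 change was 0.97 (SE 0.07). FBXO45, an F-box protein that selects substrates for ubiquitin ligation, rose by 0.47 (SE 0.05), a call lost once changes were corrected for transcript length and GC. Both SUMO proteases rose. SENP2 was at 24.8, 22.8 and 18.6 TPM in Ctrl and 26.1, 36.5 and 28.9 in rhLUM, and SENP5 at 16.8, 16.0 and 16.2 against 18.6, 22.4 and 18.6. Their log2 changes were 0.45 (SE 0.14) and 0.26 (SE 0.08). Both calls were lost under median-of-ratios and upper quartile scaling, on rescaling without mitochondrial genes, with the length and GC correction, and on leaving out Ctrl B or Ctrl C. SENP2 also lost its call without the filter and on leaving out rhLUM B or rhLUM C. WDR53, a WD repeat protein, fell by 0.36 on the log2 scale (SE 0.07). RNF168, the ubiquitin ligase that marks histones at DNA breaks, was at 17.3 ± 0.38 and 18.8 ± 0.86 TPM (SD, n = 3) and did not pass. Its log2 change was 0.12 as deposited and below 0 under both scalings and the length and GC correction; it passed as lower under that correction and as higher without rhLUM A.

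Kinases and their regulators went both ways. DGKG, a diacylglycerol kinase, stood at 6.44, 7.24 and 7.61 TPM in Ctrl and at 18.9, 17.0 and 16.8 in rhLUM. The groups were well apart, with a log2 change of 1.198 (SE 0.08). PAK2, a kinase activated by RAC and CDC42, rose from 42.2 ± 0.80 to 58.4 ± 1.99 TPM (SD, n = 3), a log2 change of 0.46. MAP3K13, a kinase upstream of JNK, was at 65.4, 59.9 and 62.2 TPM in Ctrl and 40.7, 35.6 and 38.4 in rhLUM. Every rhLUM library was lower, with a log2 change of -0.70 (SE 0.06). PPP1R2, an inhibitor of protein phosphatase 1, was at 64.1, 70.1 and 58.4 TPM in Ctrl and at 43.4, 47.5 and 49.0 in rhLUM, a log2 change of -0.45 (SE 0.07). TNK2, a tyrosine kinase that binds CDC42, was at 11.7 ± 0.58 and 10.5 ± 0.29 TPM (SD, n = 3) and did not pass as deposited but passed as lower under both scalings and on rescaling without mitochondrial genes. Exons of DGKG overlap those of ETV5, and those of MAP3K13 overlap TMEM41A.

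**Figure D2:**
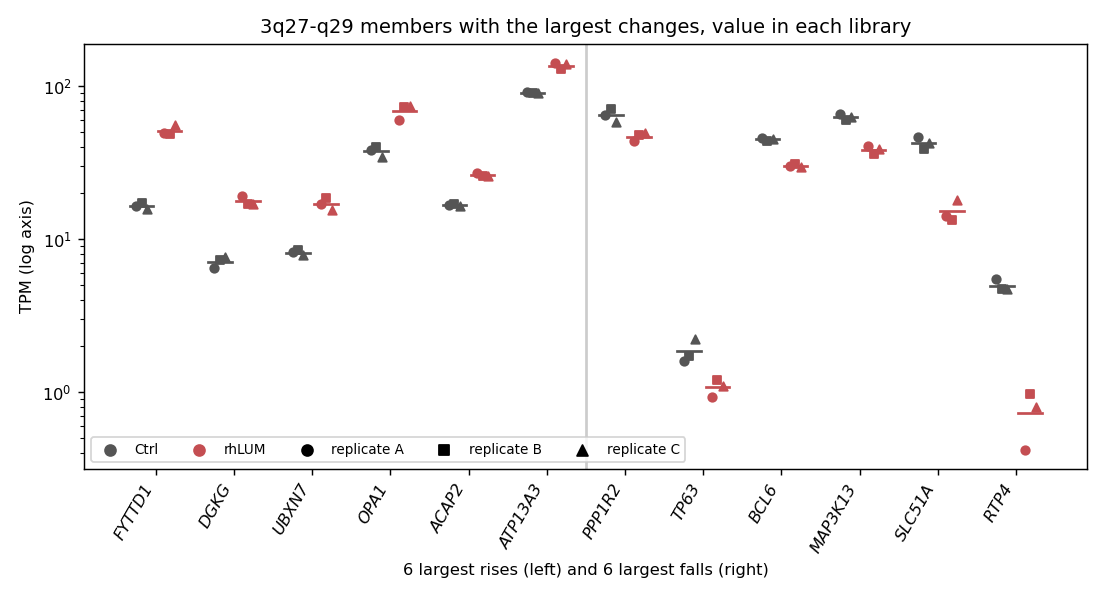
TPM in each library (log axis) of the 6 members with the largest rise (left) and the 6 with the largest fall (right), grey for Ctrl and red for rhLUM, with a bar at each group mean and the marker giving the replicate letter. The groups do not overlap for any of the 12, which were picked for their large changes, beside 71.4% of all genes with no overlap. FYTTD1 went from a mean of 16.4 to 51.0 TPM and RTP4 from 4.95 to 0.73.

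Of 7 tested genes of lipids, transport and glycans, 3 rose and 2 fell, near the 44.5% and 22.3% of all genes. SLC51A encodes a subunit of the organic solute transporter, which carries bile acids out of cells. It was at 46.5, 38.7 and 42.3 TPM in Ctrl and at 14.2, 13.3 and 17.9 in rhLUM, with no overlap and a log2 change of -1.44 (SE 0.11). PIGX, of the enzyme that adds the first mannose to GPI anchors, fell by 0.18 on the log2 scale (SE 0.05), a call lost on leaving out Ctrl A or Ctrl B. ATP13A3, a P-type ATPase linked to polyamine transport, stood at 90.7, 89.2 and 89.9 TPM in Ctrl and at 140, 128 and 138 in rhLUM, a log2 change of 0.59 (SE 0.04). PCYT1A, which sets the rate of phosphatidylcholine synthesis, rose from 39.2 ± 1.63 to 48.4 ± 1.61 TPM (SD, n = 3), and LIPH, a lipase that makes lysophosphatidic acid, from 5.92 ± 0.70 to 8.38 ± 1.24. The calls of PCYT1A and LIPH were lost under median-of-ratios and upper quartile scaling. That of LIPH was also lost with the length and GC correction and on leaving out Ctrl A, Ctrl C, rhLUM B or rhLUM C. Exons of SLC51A and PCYT1A overlap on opposite strands, and whether reads were counted by strand is unknown. XXYLT1, a xylosyltransferase that acts on Notch, was at 9.91 ± 0.75 and 8.48 ± 0.59 TPM and did not pass as deposited, but passed as lower under both scalings, without mitochondrial genes and with the length and GC correction. APOD, a lipocalin, sat just above the filter, with a mean of 1.10 TPM over the 6 libraries and a wide spread, 0.60, 1.78 and 1.33 in Ctrl and 0.90, 0.33 and 1.64 in rhLUM.

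Genes of polarity, the cytoskeleton and the cilium had 2 higher and 1 lower of 6, beside 44.5% and 22.3% of all genes. TBCCD1, a protein that positions the centrosome, rose from 8.93 ± 0.10 to 12.6 ± 1.17 TPM (SD, n = 3), a log2 change of 0.45 (SE 0.07). LRCH3, a leucine-rich repeat protein, rose from 20.5 ± 0.95 to 28.4 ± 2.88, by the same 0.45 (SE 0.08). CEP19, of the centriole and cilium, stood at 4.13 ± 0.31 TPM against 3.15 ± 0.35 and fell by 0.31 on the log2 scale (SE 0.10). Its call was lost without the filter, with a replicate block and on leaving out Ctrl B, Ctrl C, rhLUM B or rhLUM C. The groups overlapped for the rest. LPP, a LIM protein of focal adhesions, was at 71.1 ± 3.23 and 73.3 ± 2.35 TPM (SD, n = 3). The scaffold DLG1 was at 58.7 ± 3.52 and 56.8 ± 6.37, and the flagellar protein IQCG at 7.87 ± 0.68 and 8.34 ± 1.43. LPP and DLG1 passed as lower under median-of-ratios and upper quartile scaling, where LPP turned from 0.04 as deposited to -0.15 and -0.19. DLG1 also passed as lower with the length and GC correction.

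Of the remaining members OPA1 and ACAP2 rose, and RTP4 and TM4SF19 fell. OPA1, the GTPase that fuses inner mitochondrial membranes, was at 38.2, 39.8 and 34.5 TPM in Ctrl and at 59.8, 72.8 and 74.3 in rhLUM, with rhLUM A the lowest of its group. Its log2 change was 0.86 (SE 0.09). ACAP2, which switches off the small GTPase ARF6, was at 16.7, 16.8 and 16.4 TPM in Ctrl and 27.1, 25.8 and 25.6 in rhLUM, a log2 change of 0.62 (SE 0.04). RTP4, a transporter of receptors to the membrane that interferon induces, was at 5.46, 4.67 and 4.73 TPM in Ctrl and at 0.42, 0.97 and 0.80 in rhLUM. Every rhLUM value was under 1 TPM, and the log2 change of -1.79 (SE 0.15) was the largest fall among the members. TM4SF19, a tetraspan membrane protein, fell from 62.4 ± 4.16 to 46.8 ± 1.52 TPM (SD, n = 3), and shares exons with the read-through gene TM4SF19-TCTEX1D2. LMLN, a metallopeptidase, was at 4.16 ± 0.25 and 4.05 ± 0.30 TPM, and passed as lower with the length and GC correction.

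The members that did not pass the filter were ZDHHC19, a palmitoyltransferase, NRROS, a protein of myeloid cells that anchors latent TGF-beta, and SMCO1. Their means over the 6 libraries were 0.072, 0.068 and 0.0067 TPM, and SMCO1 was listed above 0 in rhLUM C only. Of the leukocyte markers, PTPRC had group means of 0.12 TPM in Ctrl and 0.20 in rhLUM and CD3E of 0.07 and 0.04. The myeloid markers did not move together, with LYZ at 180 and 241 TPM, CD68 at 33.6 and 58.1, ITGAM at 8.01 and 3.84, CSF1R at 0.37 and 0.45 and AIF1 at 0.29 and 0.10. Exons of NRROS overlap those of PIGX. In bulk tissue, fewer cells of a type and less RNA per cell cannot be told apart.

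Rises and falls were found in both large bands. In 3q27, 4 of 10 were higher and 4 lower, and in 3q29 10 of 25 were higher and 7 lower, beside 44.5% and 22.3% of all genes. Neither 3q28 gene was higher: TP63 fell and LPP did not pass as deposited. Of 64 pairs of next neighbours among the 65 tested protein-coding genes of the interval, both genes lay on the same side of the median of all genes in 34 pairs (53.1%). Over all chromosomes the same held for 53.8% of 11947 neighbouring pairs. These 2 shares cannot be compared directly, because a more uneven split alone gives more same-side pairs. In the interval 19 genes stood above that median and 46 below, against 6595 and 5381 of all protein-coding genes.

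Head-to-head neighbours, with start sites under 1 kb apart on opposite strands, gave the closest view of position. In GENCODE's basic transcripts 7 such pairs of tested protein-coding genes held a member, and in 3 of them both genes were members. In 2 pairs both genes passed the threshold and moved apart. WDR53 was at 23.2, 23.7 and 24.7 TPM in Ctrl and at 16.4, 19.5 and 19.5 in rhLUM, all lower. Its partner FBXO45 was at 13.3, 14.03 and 13.5 TPM in Ctrl and at 19.4, 19.0 and 19.6 in rhLUM, all higher, although its call was lost with the length and GC correction. The 105 bases printed above between their RefSeq starts are 70.5% G or C and hold a CCAAT box. The other pair was TBCCD1 (0.45) and DNAJB11 (-0.43, SE 0.04), a chaperone of the endoplasmic reticulum.

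In 1 pair both moved the same way, CEP19 (-0.31) and PIGX (-0.18), with the calls of both lost on leaving out single libraries. The 126 bases between their RefSeq starts are 82.5% G or C and hold Sp1 motifs on both strands. The other pairs had at most 1 gene past the threshold. FYTTD1 stood at 1.58 while RUBCN, a regulator of autophagy whose RefSeq start lies 62 bases away, was at 0.06 (SE 0.06). NCBP2 was at -0.07 and its neighbour NCBP2-AS2 fell, at -0.48. IQCG, at 0.07 (SE 0.12), faces both the ribosomal protein gene RPL35A, which fell, at -0.30 (SE 0.01), and LMLN, at -0.03 (SE 0.09). RPL35A lies within the annotated IQCG gene, so its pair with IQCG rests on an inner start of IQCG. Exons of WDR53 and FBXO45, of TBCCD1 and DNAJB11, and of FYTTD1 and RUBCN overlap in the annotation, and with these counted, 22 of the 37 members share exon positions with some other gene.

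**Figure D3:**
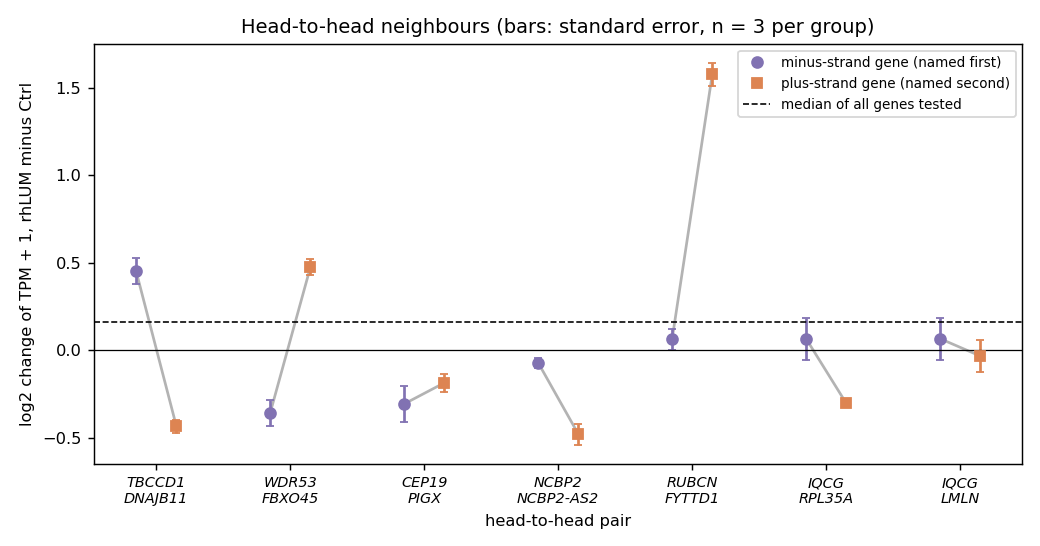
Log2 change of TPM + 1 (vertical axis, rhLUM minus Ctrl) of both genes of each head-to-head pair, circles for the minus-strand and squares for the plus-strand gene, with bars for the standard error (n = 3 per group). WDR53 and FBXO45, and TBCCD1 and DNAJB11, lie on opposite sides of 0, and CEP19 and PIGX lie together below it.

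Promoter windows, 250 bases before to 50 after a RefSeq start, were found for 34 of the 37 members, 56 windows in all. The interferon-stimulated response element core, GAAA and GAAA with any 2 bases between, was searched on both strands. It was in 3.57% of the 35116 windows searched and in 1.79% of the members', which was 1 window, that of RTP4. RTP4 holds it 2 times on the plus strand, as GAAACAGAAA from base 42 to 33 and as GAAACTGAAA from base 18 to 9 before the start. A form of the NF-kB site, GGG and TTTCC with any 2 bases between, was in 1.91% of all windows and in no member's. A CCAAT box was in 34.6% of all windows and in 30.4% of the members', and the Sp1 motif GGGCGG in 45.0% and 57.1%. The median G and C content was 65.3% over 17 windows of members that rose, 59.7% over 14 of those that fell and 58.7% over all windows. These are matches of letters, given as a description.

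The other genes of the interval were mostly lower. Of 28 other protein-coding genes, 5 were higher and 19 lower, with a median log2 change of -0.42, against 0.23 over all 11977 protein-coding genes tested, of which 51.6% were higher and 20.8% lower. Over all 45 other genes, 7 were higher and 24 lower, beside 44.5% and 22.3% of all genes tested. TFRC, the transferrin receptor, rose from 125 ± 1.46 to 260 ± 2.39 TPM (SD, n = 3), a log2 change of 1.05 (SE 0.02), and FAM43A from 2.84 ± 0.08 to 5.81 ± 0.07. The pseudogene PSMD10P2 (0.96) and AC108676.1 (0.53), which overlaps ATP13A3, made up the 4 largest rises. At the other end MUC4, a membrane mucin, went from 4.18 ± 0.28 to 1.03 ± 0.20 TPM, a log2 change of -1.35, and CRYGS, a lens crystallin whose exons overlap those of TBCCD1, from 7.19 ± 1.22 to 2.21 ± 0.36. The largest negative values belonged to 2 short RNA genes. MIR570 was at 53.2 TPM in Ctrl B and listed at 0 in the 5 other libraries, and RNU2-11P was above 0 in Ctrl A and Ctrl C only. Neither passed the threshold.

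Along chromosome 3 the distal end stood lower than the rest on the TPM as deposited. In 10 Mb bins of protein-coding genes, the medians were -0.19 from 180 to 190 Mb (51 genes, 15 higher and 24 lower) and -0.19 from 190 to 200 Mb (42 genes, 12 higher and 20 lower). These were the 2 bins with a median below 0 among the 14 with at least 20 genes, and the 12 others ran from 0.09 to 0.49. The bin from 180 to 190 Mb begins before the first member start at 185282941, so some of its 51 genes lie outside the interval. The bin before it, 170 to 180 Mb, had a median of 0.09 (25 genes, 10 higher and 9 lower). These bins therefore do not set the interval apart from the stretch just before it. Outside the interval, chromosome 3 had 356 higher and 134 lower of 685 tested genes and a median of 0.26. The summed level of the 37 members was higher in every rhLUM library, at 1694 to 1729 TPM in Ctrl and 1754 to 1793 in rhLUM, and EIF4A2 alone gave 477 and 493 of these sums in the group means. On rescaling without mitochondrial genes the order turned, to 2136 to 2175 in Ctrl and 2051 to 2093 in rhLUM. That of the 28 other protein-coding genes was lower with rhLUM, at 2940 to 2997 TPM in Ctrl and 2549 to 2608 in rhLUM, and remained lower after that rescaling, at 3707 to 3772 and 2974 to 3048.

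**Figure D4:**
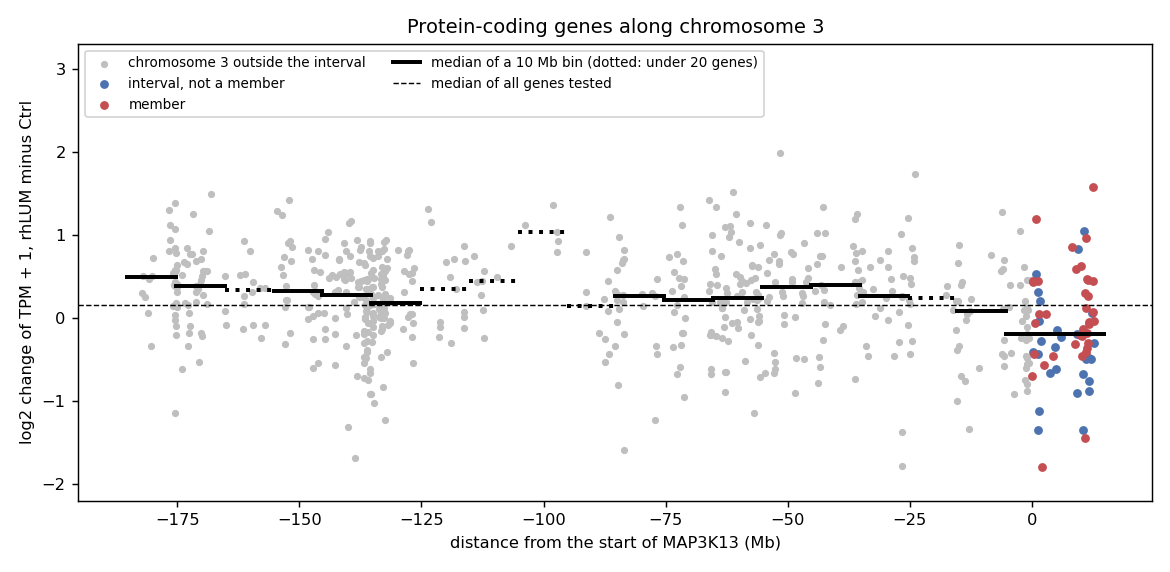
Log2 change of TPM + 1 (vertical axis, rhLUM minus Ctrl) of protein-coding genes along chromosome 3, by distance in Mb from the start of MAP3K13, with members in red and other genes of the interval in blue. Solid bars are medians of 10 Mb bins with at least 20 genes and dotted bars those of bins with fewer. The last 2 bars, both at -0.19, lie below 0, and the first of these 2 begins before the interval.

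The median annotated transcript was 1764 bases for the 14 members that rose, 1382 for the 12 that fell, 1133 for the 11 that did not pass and 1659 over all genes, given as a description. Each gene's length and GC were medians over its annotated transcripts, protein-coding ones where it had any, with LPP at 535 and EIF4A2 at 600 bases. Whether the tumours express transcripts of these lengths was not tested, and the correction below uses them. With changes corrected for length and GC content, 10 members were higher and 18 lower, beside 36.9% and 29.9% of all genes in that fit. Several of the rises were much smaller there. ATP13A3 stood at 0.132 in place of 0.59, PAK2 at 0.115 in place of 0.46, OPA1 at 0.42 in place of 0.86 and FBXO45 at 0.06 in place of 0.47. TBCCD1 and LRCH3 went from 0.45 to 0.21 and 0.20, while IGF2BP2 went from -0.43 to -0.74. Under median-of-ratios scaling ATP13A3 was at 0.39, PAK2 at 0.26, TBCCD1 at 0.27 and LRCH3 at 0.26, and HES1 was at -0.50, WDR53 at -0.55, CEP19 at -0.46 and PIGX at -0.38. For FYTTD1, DGKG, UBXN7, RTP4, SLC51A, MAP3K13 and BCL6 the log2 change stayed within 1.5 times its deposited value in every alternative that tested them. RTP4 still depended on the pseudocount, with a log2 change of -1.79 as deposited and -2.67 with a pseudocount of 0.1.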

How the data were processed

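Poly-A RNA of 3 Ctrl and 3 rhLUM libraries was sequenced as paired reads of 151 bases, per the labels' protocols. The authors deposited 1 TPM table per library; STAR 2.7.8, RSEM 1.2.31 and GRCh38 are named per the submitters' processing notes. The annotation release, strand use and any removal of host reads are not stated. TPM keeps no depth, so depth is unknown and no counting interval is given.

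Of the rows, 2210 under 313 shared symbols were left out, and 37646 of 58515 remaining symbols matched GENCODE release 29 (36853 by symbol, 26 through older names, 767 through a RefSeq synonym). The 14781 genes that averaged 1 TPM or more were fitted with limma 3.58.1 in R 4.3.3 on log2(TPM + 1) with a variance trend, 4 residual degrees of freedom and no covariates. Tests were two-sided, with Benjamini-Hochberg adjustment over all genes and a threshold of 0.05. On this scale the changes of weakly expressed genes come out too small. Exact permutation of 3 against 3 libraries gives no p under 0.1 and was not run. The fit was tested on simulated data.

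Members and lists were chosen with earlier results of these data known. Every member was named, the 6 largest rises and 6 largest falls by library, with the 4 largest in each direction among other genes of the interval and both genes of each head-to-head pair. HES1, SENP2, SENP5, APOD, WDR53 and FBXO45 were also given by library, chosen after their values were seen. Promoter sequences are RefSeq's (GRCh38.p14), and 10 motifs were searched. Alternatives covered scaling, pseudocount, filter, variance trend, replicate block, length and GC, and leaving out each library. The level of 1 leukocyte marker is not reported here.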

Additional observations from a re-analysis of the deposited data

How the results depend on the processing

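As deposited, 26 of the 37 members passed the threshold, beside 66.8% of all genes, and no called member changed sign in any alternative run. RTP4, TP63 and APOD were not tested where 1 TPM was required in all 6 libraries. With median-of-ratios scaling 19 members were lower, beside 32.5% of all genes. The median log2 changes were -0.191 for members, -0.519 for other genes of the interval, -0.015 for all genes and 0.081 for chromosome 3 outside it. With upper quartile scaling 19 members and 5117 of all genes (34.6%, against 3299 as deposited) were lower, with medians of -0.221, -0.551, -0.048 and 0.046 in that order. Rescaling without mitochondrial genes gave -0.128, -0.480, 0.061 and 0.159, and the length and GC correction -0.185, -0.508, 0.045 and 0.065. A pseudocount of 0.1 gave -0.434 for other genes of the interval, 0.179 for all genes and 0.282 for the rest of chromosome 3. Without a filter the median of all genes was 0.010. With 1 TPM required in every library it was 0.193, with 0.045 for members and 0.268 for the rest of chromosome 3. The cause of these shifts was not tested. The members' median minus that of all genes was -0.192 as deposited and lay between -0.230 and -0.017 over the alternatives.

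Leaving out each library in turn left 21 to 27 members past the threshold, 11 to 15 higher and 10 to 12 lower. In those fits 41.5% to 42.5% of all genes were higher and 20.1% to 21.1% lower. The medians ran from -0.050 to 0.019 for members, -0.425 to -0.302 for other genes of the interval, 0.156 to 0.163 for all genes and 0.251 to 0.259 for the rest of chromosome 3. Deviations from the group mean across genes had r = 0.0292 for A, -0.0228 for B and 0.0835 for C between libraries with the same letter. Between different letters r ran from -0.0835 to 0.0505. With 3 libraries per group these values cannot exclude pairing. The labels do not call the letters pairs, and the main fit did not take them as pairs. With the letter as a replicate block 24 members passed, TP63 and CEP19 being lost, and 9648 of all genes against 9870. TPM without depth sets no limit on how small a change could be seen.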
